A study of Mus musculus with 58 samples.

Results

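The retinoid pathway was followed through 9 genes, namely the 3 retinoic acid receptors Rara, Rarb and Rarg, the 2 cellular retinoic acid binding proteins Crabp1 and Crabp2, the retinoic acid hydroxylases Cyp26a1 and Cyp26b1, the short-chain reductase Dhrs3 and the membrane receptor Stra6. They were chosen by symbol, each matched 1 Ensembl gene, and they make up 9 of the 20177 genes in the files. All-trans retinoic acid (RA) is a vitamin A derivative that binds RAR receptors, which sit on DNA as heterodimers with RXR receptors and switch from repression to activation when the ligand binds. The pathway is known for negative feedback, since enzymes that break RA down or lower its precursors are themselves RA targets, and RA is a classic agent for driving embryonic stem cells out of self-renewal. STRA6 takes up retinol from its carrier protein in blood, DHRS3 reduces retinal back to retinol, CYP26 enzymes oxidize RA, and CRABP proteins hold RA in the cytoplasm.

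The cells were E14 mouse embryonic stem cells of the 129/Ola strain, kept in serum with LIF, in which a core subunit of the SET1/COMPASS family of histone H3 lysine 4 methyltransferases can be degraded by a ligand. In DPY30mAID cells, which also carry the plant F-box protein OsTIR1 from a transgene, DPY30 is tagged at its own locus and lost with auxin. In RBBP5FKBP cells, RBBP5 is tagged at its own locus and lost with dTAG-13. In the DPY30mAID Kdm5dKO cells, the H3K4 demethylase genes Kdm5a and Kdm5b were deleted as well, and which of the isolated clones was sequenced is not stated in the labels. The RA course was measured in DPY30mAID cells by Quant-seq, which reads the 3′ ends of mRNAs, in cells given 1 µM RA without LIF together with the vehicle DMSO (0 h, 8 h, day 1, day 2, day 4 and day 6) or with auxin (8 h, day 1, day 2, day 4 and day 6), in 2 libraries each. The purpose was to ask whether switching genes on with RA depends on trimethylated H3K4. The labels do not say how long auxin was present before RA, so time with RA and time with auxin cannot be told apart. The 3 lines were measured without RA by SLAM-seq, in which 4-thiouridine (100 µM for 60 min) marks new RNA by T>C changes in reads, at 0, 2, 8 and 24 h of ligand in 3 libraries each, and for Kdm5dKO at 0, 2, 4, 8, 24 and 48 h in 2 libraries each. The study describes its SLAM-seq replicates as biological, and the labels do not say that libraries of a group came from separate cultures. The p-values therefore measure the spread between libraries, which may be technical.

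Quant-seq libraries held 1264241 to 2543632 counted reads, DPY30mAID SLAM-seq libraries 2013350 to 2806821, RBBP5FKBP libraries 1721185 to 2852331 and Kdm5dKO libraries 5931269 to 7792404. Levels are given as CPM, the reads of a gene scaled to the counted reads of its library, and a gene was called when the edgeR quasi-likelihood test gave an adjusted p under 0.05 with an absolute log2 fold change above 1. The 2 deposited day 6 DMSO libraries were identical and were counted as 1 sample, so every day 6 contrast against DMSO takes its spread from the other groups. At 0 h all 8 pluripotency markers were detected and summed to 6940 to 7188 CPM in the Quant-seq libraries. Kdm5a reads at 0 h were at 26.0 to 27.5 CPM in Kdm5dKO against 74.5 to 106 CPM in DPY30mAID, and Kdm5b reads at 109 to 151 against 906 to 946 CPM. Reads from the 3′ end do not show a deletion further upstream, and the mRNA of a protein lost by degron is no check of the ligand.

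RAR and RXR heterodimers bind direct repeats of a short half-site, and the best known spacing is 5 bases (DR5). Promoter windows of RefSeq (GRCm38.p6, 250 bases before to 50 bases after the start of transcription) were searched on both strands for the half-site AGGTCA and the variants AGTTCA as well as GGGTCA and also GGTTCA, repeated in the same direction with spacers of 1, 2 or 5 bases. Of the 8 members with a window, 2 held a DR5, against 0.115% of the 27025 genes with a window, and no member held a repeat with a spacer of 1 base (0.263% of genes) or 2 bases (0.311% of genes). Crabp2 has no entry. Both sites found are shown, with the half-sites in capitals and 6 flanking bases on each side, on the strand that carries the repeat.
Rarb: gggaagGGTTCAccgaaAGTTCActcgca
Cyp26a1: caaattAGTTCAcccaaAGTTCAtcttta
The Rarb repeat lies on the minus strand, the strand of the gene, at chr14:16575513-16575529, and begins 53 bases before the start. The Cyp26a1 repeat also lies on the minus strand, at chr19:37697776-37697792, opposite to the gene, and takes the bases from 32 to 16 before the start. A match of letters is a description of the window and not a measurement of binding. Cyp26b1, Dhrs3 and Stra6, which were also called at 8 h of RA, have windows with no such repeat.

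In the DMSO course with RA, 6 of the 9 members were called higher than at 0 h, 2 lower and Rara neither, and the order in time differed between genes. The RA cells were also without LIF, so in contrasts with 0 h the effects of RA, of LIF withdrawal and of time in culture cannot be told apart. Cyp26a1, Cyp26b1, Dhrs3, Rarb and Stra6 were called higher at 8 h, Crabp2 joined them at day 1, Rarg was called lower from day 1 and Crabp1 from day 2. At 8 h, 5 members were called higher and 0 lower, where 3.5% of the 11415 genes tested were called higher and 2.93% lower. At day 1 the counts were 6 higher and 1 lower (16% and 13.4% of all genes), and at day 2 they were 6 and 2 (16.2% and 10.1%). They stayed at 6 and 2 at day 4 (19.9% and 10.5%) and at day 6 (22.4% and 14.6%). All 9 members passed the filter on low counts. Cyp26a1, Cyp26b1, Dhrs3, Rarb, Stra6 and Crabp2 passed it only through groups with RA, where they were high. Their counts beside the share of all genes, and the medians that follow, are a description and no support for a difference. The median log2 fold change of the members was 2.52 at 8 h against 0 over all genes tested, and 6.28 at day 4 against 0.06. Both medians are the same with Cyp26a1 and Cyp26b1, which start from 0 reads, placed at the lower bounds of their change.

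**Figure D1:**
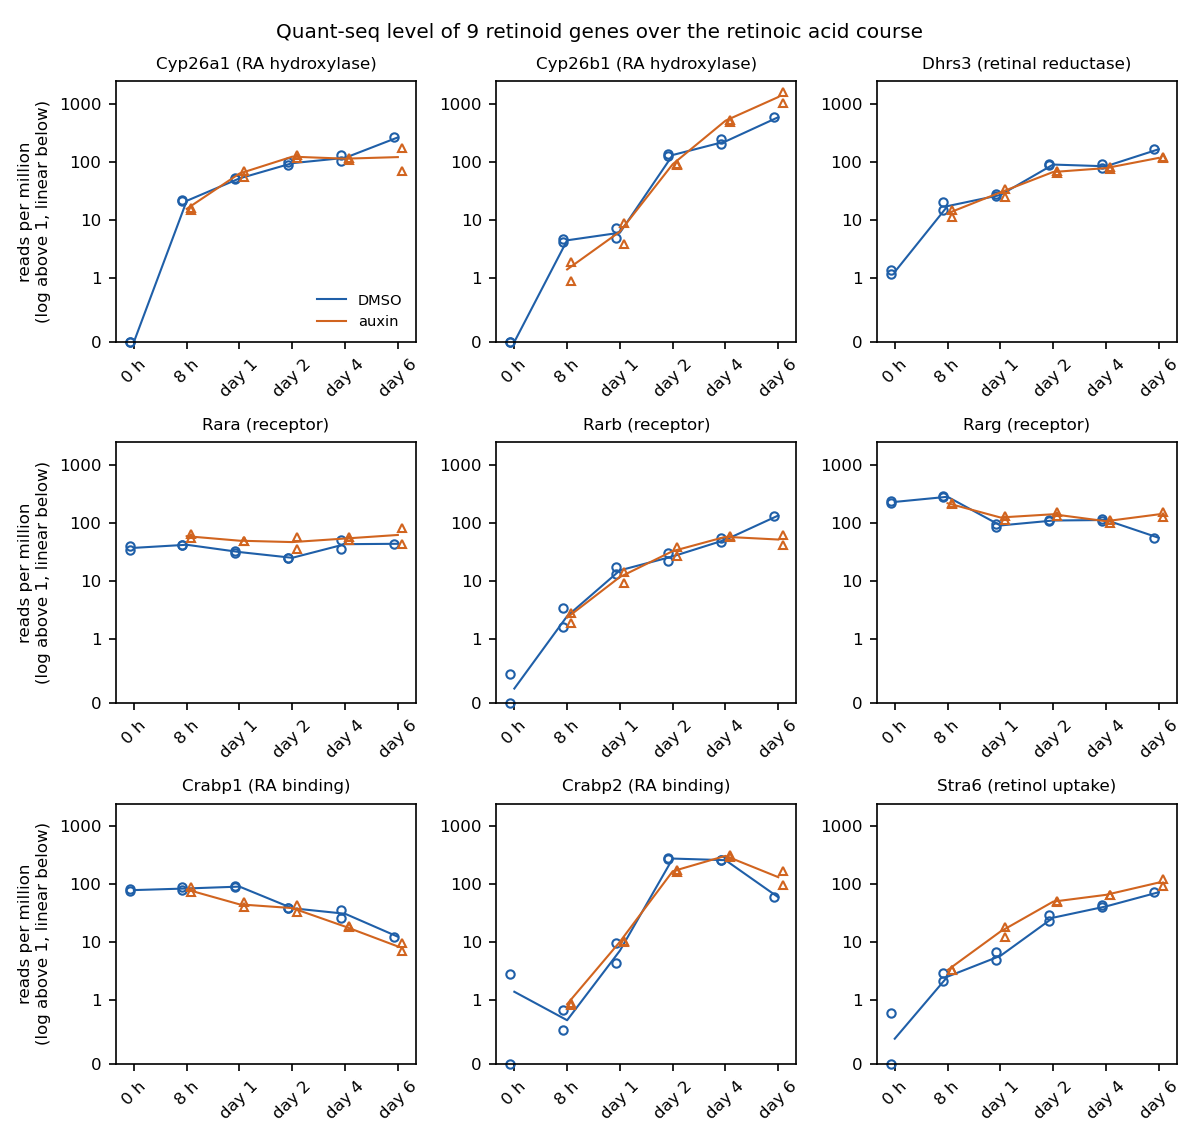
CPM (log axis above 1, linear below) of the 9 members against time in RA, in DMSO (blue circles) and in auxin (orange triangles), with each point a library and lines through group means. Cyp26a1, Cyp26b1, Dhrs3, Rarb and Stra6 climb from 0 to 1.34 CPM at 0 h, Crabp2 rises steeply between day 1 and day 2, and Rarg and Crabp1 decline.

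The hydroxylases were the members with no reads at the start. Cyp26a1 (ENSMUSG00000024987), the main RA-degrading enzyme of the early embryo, had 0 of 4776087 reads in the 2 libraries at 0 h, which allows a level of up to 0.628 CPM, counting error only. At 8 h it stood at 21.9 and 21.0 CPM, which is at least 34.1-fold higher against a floor of 3 reads over the 0 h libraries (adjusted p = 9.34e-07). The groups did not overlap. Cyp26a1 then rose to 53.7 and 51.2 CPM at day 1 (step log2 fold change 1.17 ± 0.29 SE, adjusted p = 0.00253) and 90.1 and 103 CPM at day 2 (0.84 ± 0.24, adjusted p = 0.0128). Day 4, at 133 and 106 CPM, did not differ from day 2 by the test (0.23 ± 0.21, adjusted p = 0.43). The single day 6 library was the highest, at 269 CPM (1.12 ± 0.23 against day 4, adjusted p = 0.00107).

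Cyp26b1 (ENSMUSG00000063415), a second RA hydroxylase with its own sites of expression in the embryo, followed a later course. It had 0 reads at 0 h, 4.70 and 4.20 CPM at 8 h (at least 7.04-fold higher, adjusted p = 0.0033) and 4.88 and 7.16 CPM at day 1, a step that did not pass the test (0.32 ± 0.57, adjusted p = 0.698). The rise came between day 1 and day 2, to 130 and 137 CPM (4.42 ± 0.30, adjusted p = 3.71e-11). It went on to 207 and 251 CPM at day 4 (0.71 ± 0.17, adjusted p = 0.00228) and to 603 CPM at day 6 (1.35 ± 0.18, adjusted p = 7.05e-06). Both Cyp26 genes were highest at day 6 in DMSO, and the increase of Cyp26b1 came mostly after day 1.

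Dhrs3 (ENSMUSG00000066026), which lowers the supply of retinal for RA synthesis, had 3 reads in each library at 0 h (1.34 and 1.18 CPM). It rose to 14.6 and 20.2 CPM at 8 h (log2 fold change 3.82 ± 0.40, adjusted p = 1.01e-07), then to 27.7 and 26.5 CPM at day 1 and 89.1 and 93.2 CPM at day 2 (step 1.72 ± 0.18, adjusted p = 6.72e-08). At day 4 it was at 78.9 and 91.4 CPM, overlapping day 2, and at day 6 at 168 CPM. Dhrs3 was the only member with more than 1 counted interval, and 1 of its 4 held 99.6% of its Quant-seq reads.

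Stra6 (ENSMUSG00000032327), the retinol uptake receptor, started from 0 and 2 reads. It had 4 and 7 reads at 8 h (2.09 and 2.94 CPM), a 6.11-fold ratio with a 95% counting interval of 1.33 to 56.8 (adjusted p = 0.0373), and this call was lost with DESeq2 (adjusted p = 0.111) and without 0 h replicate 1 or either 8 h library (edgeR adjusted p 0.0655 to 0.241). It reached 4.88 and 6.61 CPM at day 1, 29.9 and 22.8 CPM at day 2 (step 2.15 ± 0.32, adjusted p = 2.01e-05), 39.7 and 42.9 CPM at day 4 and 72.7 CPM at day 6. No library of a later time fell below a library of an earlier one from day 1 on.

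The receptors moved in different directions. Rarb (ENSMUSG00000017491), the receptor known as a direct RA target, had 1 and 0 reads at 0 h and 3 and 8 reads at 8 h (1.57 and 3.36 CPM), a 12.2-fold ratio with a 95% counting interval of 1.78 to 526 (adjusted p = 0.0205). This call was lost with DESeq2 (adjusted p = 0.0947) and without 0 h replicate 2 or 8 h replicate 2 (edgeR adjusted p = 0.188 and 0.244). It rose to 17.4 and 13.2 CPM at day 1 (step 2.44 ± 0.44, adjusted p = 7.74e-05), 30.9 and 22.4 CPM at day 2, 55.9 and 47.6 CPM at day 4 and 136 CPM at day 6 (1.34 ± 0.22 against day 4, adjusted p = 7.69e-05). The step from day 1 to day 2 did not pass the test (0.75 ± 0.28, adjusted p = 0.0566). The Rarb interval overlaps Top2b on the opposite strand, and the sources used here do not state whether counting used strand. The interval held 1 and 0 reads at 0 h here, and 0 in all 12 DPY30mAID and all 12 RBBP5FKBP SLAM-seq libraries. Reads of the pair were not separated, and the part of Top2b reads was not tested.

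Rarg (ENSMUSG00000001288), the gene of the third receptor, was at 240 and 228 CPM at 0 h and 281 and 293 CPM at 8 h (0.36 ± 0.11, adjusted p = 0.0258), before it fell to 97.7 and 85.4 CPM at day 1 (-1.40 ± 0.13 against 0 h, adjusted p = 9.46e-10). It held at 114 and 109 CPM at day 2 and 120 and 107 CPM at day 4, with neither step past the test, and was lowest at day 6, at 56.0 CPM (-1.07 ± 0.18 against day 4, adjusted p = 6.55e-05). Its libraries lay above both 0 h libraries at 8 h and below both at every later time. Rara (ENSMUSG00000037992), the broadly expressed receptor, stayed between 25.2 and 51.4 CPM in all 11 DMSO libraries counted. Its largest difference from 0 h was at day 2, at 25.2 CPM in both libraries against 34.0 and 40.9 CPM (-0.66 ± 0.25, adjusted p = 0.0293), and was not called.

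The binding proteins moved in opposite directions. Crabp1 (ENSMUSG00000032291) was at 76.6 and 81.8 CPM at 0 h and at 92.8 and 89.3 CPM at day 1, and fell to 38.6 and 38.2 CPM at day 2 (-1.12 ± 0.17 against 0 h, adjusted p = 6.96e-06), 36.1 and 25.7 CPM at day 4 and 12.3 CPM at day 6 (-2.88 ± 0.27 against 0 h, adjusted p = 8.78e-10). Crabp2 (ENSMUSG00000004885), which passes RA to receptors in the nucleus, had 0 and 7 reads at 0 h and 1 and 2 reads at 8 h, so no early change was detectable at this depth. It then stood at 9.77 and 4.41 CPM at day 1 (2.19 ± 0.64 against 0 h, adjusted p = 0.00597), a call lost without 0 h replicate 1 or day 1 replicate 1 (adjusted p = 0.0608 and 0.137). The rise followed, to 285 and 272 CPM at day 2 (step 5.24 ± 0.26, adjusted p = 4.49e-14) and 261 CPM in both day 4 libraries. Unlike the other members that rose, Crabp2 was lower again at day 6, at 59.5 CPM (-2.18 ± 0.23 against day 4, adjusted p = 1.47e-07).

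With auxin present, the same question was asked of cells without DPY30, against the shared DMSO libraries at 0 h. The counts of members called were 4 higher and 0 lower at 8 h (3.81% and 3.4% of genes tested), 6 and 0 at day 1 (14.4% and 11.3%), 6 and 1 at day 2 (18.2% and 8.33%), 6 and 2 at day 4 (22.8% and 11.4%) and 6 and 2 at day 6 (23.2% and 13.2%). Cyp26a1 was at 16.1 and 15.1 CPM at 8 h, at least 24.8-fold above the 0 h floor (adjusted p = 9.29e-06). Cyp26b1 was the member called in DMSO but not in auxin at 8 h, with 4 and 2 reads (1.84 and 0.942 CPM, adjusted p = 0.092), and without the filter on low counts it was called there too (adjusted p = 0.025). The Rarb and Stra6 calls in auxin at 8 h rest on 6 and 4 reads and on 7 in each library (adjusted p = 0.0317 and 0.0138). Both were lost with DESeq2 (adjusted p = 0.12 and 0.0622), without either auxin library, and without 1 of the 0 h libraries (edgeR adjusted p 0.0545 to 0.235). Cyp26b1 was at 8.74 and 3.86 CPM at day 1 (adjusted p = 0.00027), and its difference between auxin and DMSO at 8 h itself did not pass the test (adjusted p = 0.416). Because both courses share the 0 h libraries and no auxin library at 0 h was used here, they are not independent of each other. The members called higher in auxin also passed the filter on low counts only through groups with RA, so their counts too are a description.

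Auxin was next compared with DMSO at the same time. At 8 h edgeR called 0 of the 9 members, with 1 lower at an unadjusted p under 0.05 and the same fold change and 0 by DESeq2, where 0.0175% of genes were called higher and 0.14% lower. Cyp26a1 was at 16.1 and 15.1 CPM in auxin and 21.9 and 21.0 CPM in DMSO (-0.54 ± 0.35, adjusted p = 0.62). Cyp26b1 was at 1.84 and 0.942 CPM against 4.70 and 4.20 CPM (-1.71 ± 0.77, adjusted p = 0.416), and Rarg at 217 and 227 CPM against 281 and 293 CPM (-0.46 ± 0.12, adjusted p = 0.0589). For these 3 genes the auxin libraries lay below both DMSO libraries, by less than the test could call. Rara lay above both, at 54.8 and 64.5 CPM in auxin against 42.8 and 42.0 CPM (0.41 ± 0.22, adjusted p = 0.526), and was not called. Dhrs3 and Rarb overlapped between the arms, and Stra6 was at 3.23 and 3.30 CPM against 2.09 and 2.94 CPM. Across the 5 times the median log2 difference of the 9 members ran from -0.21 at 8 h to 0.38 at day 6, and that of all genes from 0 to 0.04.

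At day 1 the call was for 1 member. Stra6 was higher with auxin, at 12.2 and 18.0 CPM against 4.88 and 6.61 CPM (1.43 ± 0.37, adjusted p = 0.0164), where 1.02% of genes were called higher and 1.38% lower. Stra6 lay above DMSO in every auxin library from 8 h to day 6. At day 2 the values were 50.3 and 49.6 CPM against 29.9 and 22.8 CPM (0.85 ± 0.22, adjusted p = 0.00999). The differences at 8 h (0.26 ± 0.56, adjusted p = 0.926) and day 4 (0.49 ± 0.20, adjusted p = 0.0923) did not pass the test. At day 6 the difference was 0.42, against a single DMSO library. The difference at day 1 lost its call when auxin replicate 2, DMSO replicate 1 or DMSO replicate 2 was left out, with adjusted p of 0.222, 0.175 and 0.0667. Crabp1 was lower at day 1, at 40.8 and 48.9 CPM against 92.8 and 89.3 CPM (-0.97 ± 0.18, adjusted p = 0.000898), just inside the limit on fold change. It was called in a fit of these 2 groups (-1.01), without the filter on low counts (-1.01), without auxin replicate 2 (-1.14) and without DMSO replicate 2 (-1.03). Crabp1 was also lower at day 4, at 18.6 and 18.4 CPM against 36.1 and 25.7 CPM (-0.91 ± 0.23, adjusted p = 0.00648), and was called without DMSO replicate 2 (-1.13). At day 2 its libraries overlapped, at 43.8 and 33.5 CPM against 38.6 and 38.2 CPM. Rara again lay above both DMSO libraries at day 1 without passing the test, at 49.5 and 50.2 CPM against 32.5 and 30.9 CPM (0.70 ± 0.24, adjusted p = 0.0821).

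At day 2 edgeR called 0 members, with 0 at an unadjusted p under 0.05 and the same fold change and 0 by DESeq2 (2.93% of genes higher and 1.88% lower). Rara was called higher without auxin replicate 2 (1.12, adjusted p = 0.0111) and Stra6 without DMSO replicate 1 (1.03, adjusted p = 0.0201). Crabp2 was at 176 and 160 CPM in auxin against 285 and 272 CPM in DMSO (-0.81 ± 0.17, adjusted p = 0.00137). Dhrs3 was at 63.8 and 71.7 CPM against 89.1 and 93.2 CPM (-0.51 ± 0.16, adjusted p = 0.0318), Cyp26b1 at 94.1 and 90.8 CPM against 130 and 137 CPM (-0.61 ± 0.19, adjusted p = 0.0317), and Rara at 57.9 and 36.5 CPM against 25.2 CPM in both DMSO libraries (0.83 ± 0.25, adjusted p = 0.0252). In each of these 4 genes the arms did not overlap, with differences below the limit on fold change. Cyp26a1 and Rarb did not pass the test at day 2, with differences of 0.29 ± 0.22 (adjusted p = 0.415) and 0.23 ± 0.25 (adjusted p = 0.611).

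At day 4 Cyp26b1 was called higher with auxin, at 543 and 506 CPM against 207 and 251 CPM (1.02 ± 0.16, adjusted p = 4.26e-05), where 4.66% of genes were called higher and 2.59% lower. In mean CPM, before scaling, auxin was 2.29 times DMSO. The fitted value sat at the limit on fold change, and was 0.98 without the filter on low counts, 0.97 without auxin replicate 1 and 0.88 without DMSO replicate 1. The auxin effect on Cyp26b1 at day 4 was larger than that at 8 h by 2.72 ± 0.78 on the log2 scale (adjusted p = 0.0348, where 1.96% of genes were called higher and 1.59% lower). That difference rests on 4 and 2 reads against 9 and 10 reads at 8 h, and it lost its call when any 8 h library, auxin day 4 replicate 1 or DMSO day 4 replicate 1 was left out (adjusted p 0.0628 to 0.158). Cyp26a1, at 119 and 112 CPM against 133 and 106 CPM, Rarb, at 57.1 and 59.3 CPM against 55.9 and 47.6 CPM, and Crabp2, at 294 and 326 CPM against 261 CPM, were not called at day 4. Both auxin libraries of Rarb lay above both DMSO libraries in CPM (1.13 times in the mean), while the fitted difference after scaling of library sizes was -0.01 ± 0.21 (adjusted p = 0.989).

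At day 6 the DMSO arm was a single library, and 3 members were called higher and 2 lower with auxin (4.77% and 5.3% of genes). Cyp26b1 was at 1053 and 1638 CPM against 603 CPM (1.03 ± 0.19, adjusted p = 0.000336), Crabp2 at 166 and 98.9 CPM against 59.5 CPM (1.02 ± 0.24, adjusted p = 0.00374) and Rarg at 159 and 126 CPM against 56.0 CPM (1.21 ± 0.18, adjusted p = 1.74e-05). Rarb was lower, at 62.5 and 41.9 CPM against 136 CPM (-1.51 ± 0.23, adjusted p = 3.24e-05), and Cyp26a1 was at 176 and 69.6 CPM against 269 CPM (-1.26 ± 0.24, adjusted p = 0.000488). The last step from day 4, which raised Cyp26a1 and Rarb in DMSO, was 0.09 ± 0.22 (adjusted p = 0.844) and -0.16 ± 0.22 (adjusted p = 0.699) in auxin. A fit of these 2 groups alone called none higher and only Rarb lower, and without auxin replicate 2 the Cyp26a1 value was -0.80 and the Cyp26b1 value 0.62, both uncalled. Without auxin replicate 1 the Crabp2 value was 0.64, also uncalled.

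**Figure D2:**
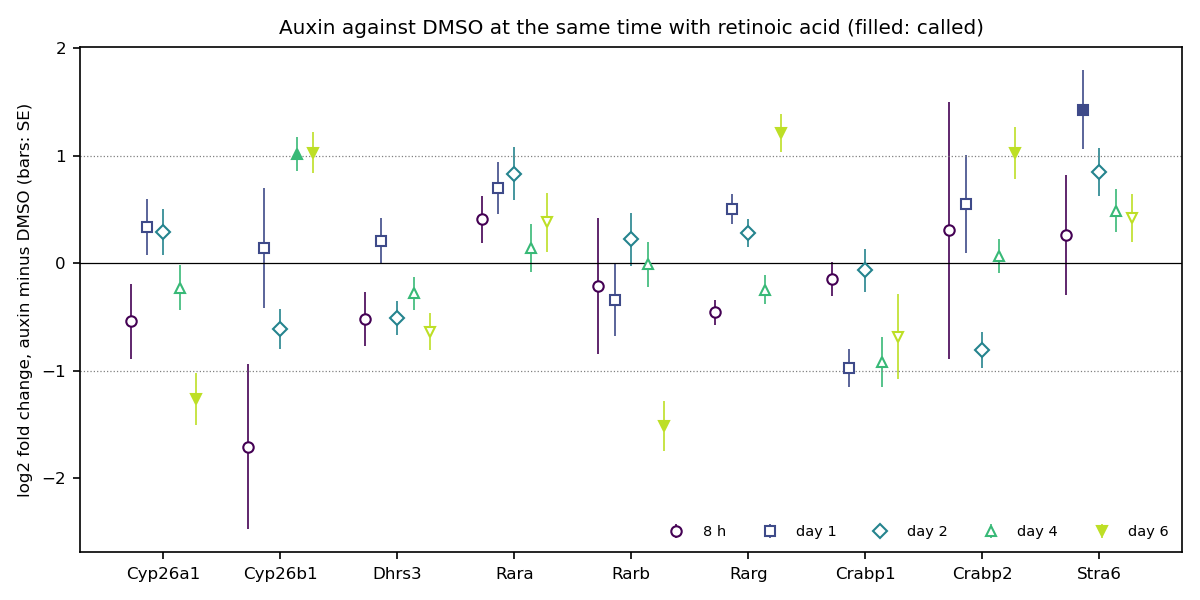
Log2 fold change of auxin over DMSO at each time in RA for the 9 members, with bars of 1 SE, filled symbols for calls and dotted lines at the limit on fold change. At 8 h no symbol is filled, Stra6 is called at day 1 (1.43), Cyp26b1 at day 4 (1.02), and 5 members at day 6, where DMSO is 1 library.

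The change of Rarg with auxin depended on time. Its auxin effect at day 1 exceeded that at 8 h by 0.96 ± 0.18 (adjusted p = 0.00395) and that at day 2 exceeded it by 0.74 ± 0.17 (adjusted p = 0.0131), both under the limit on fold change. In CPM, Rarg fell from 8 h to day 1 in DMSO from 281 and 293 to 97.7 and 85.4, and in auxin from 217 and 227 to 116 and 136. Auxin libraries were below both DMSO libraries at 8 h and above both at day 1. At day 4 the arms overlapped, at 102 and 115 CPM in auxin against 120 and 107 CPM in DMSO, and the difference of that effect from the one at 8 h did not pass the test (0.21 ± 0.18, adjusted p = 0.582).

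Marker lists moved with the same arms and times. The summed level of 10 primitive endoderm markers was 83.3 to 83.7 CPM at 0 h and 3916 to 3983 CPM at day 4 and 8972 CPM at day 6 in DMSO, against 1534 to 1553 CPM and 1797 to 1939 CPM in auxin, with all 10 detected at these late times. At day 2 it was 704 to 730 CPM in DMSO against 515 to 574 CPM in auxin. The sum of 8 pluripotency markers was 7340 to 7432 CPM in DMSO and 4853 to 4911 CPM in auxin at day 1, and 3380 to 3394 CPM against 2161 to 2220 CPM at day 4. At day 6 it was 1748 CPM in DMSO against 1867 to 1890 CPM in auxin. The 6 trophectoderm and simple epithelium markers summed to 1681 CPM in DMSO and 1248 to 1454 CPM in auxin at day 6, the 10 neural markers to 37.5 CPM against 70.1 to 103 CPM with up to 4 at 0, and the 5 mesoderm markers to at most 34.0 CPM at any time. In these bulk samples fewer cells of a type and less RNA per cell cannot be told apart, and the part of cell composition in the member differences was not tested.

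**Figure D3:**
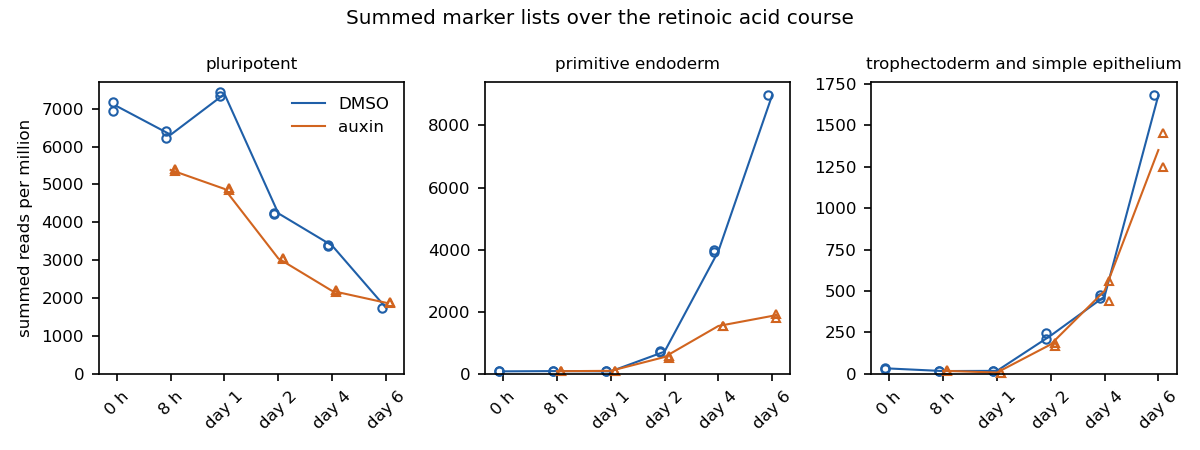
Summed CPM of the pluripotency, primitive endoderm, and trophectoderm and simple epithelium lists against time in RA, in DMSO (blue circles) and auxin (orange triangles), with each point a library and lines through group means. The primitive endoderm sum is lower in auxin at day 2 (704 to 730 CPM in DMSO against 515 to 574 CPM), day 4 and day 6, and the pluripotency sum is lower in auxin at 8 h, day 1, day 2 and day 4 and higher at day 6 (1748 against 1867 to 1890 CPM).

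Over the 11 Quant-seq groups, the genes with the most similar pattern of log2 group means included, for Cyp26a1, Hoxa3 (Pearson r = 0.979) and Ifngr1 (0.972). For Rarb they were Dsc2 (0.994), Lipa (0.991) and Slc30a4 (0.989), and for Cyp26b1 Prickle1 (0.987), Cdkn2a (0.979) and 9130008F23Rik (0.977). Dhrs3 was closest to Zfp703 (0.981), Fgfr2 (0.975) and Tshz1 (0.97), Stra6 to Hgsnat (0.984), Prtg (0.982) and Pak3 (0.981), and Crabp2 to Hmgb3 (0.976) and Bin1 (0.972). Of the members that fell, Crabp1 was closest to Smc2 (0.981), Tcea1 (0.977) and Cdh22 (0.974), and Rarg to Zbtb12 (0.974), Ddx56 (0.97) and Heatr1 (0.966). Rara had the lowest values, with Spata7 (0.915) and Psors1c2 (0.884). Among the members, Cyp26a1 and Dhrs3 were alike at 0.965, Cyp26b1 and Stra6 at 0.957, and Cyp26a1 and Crabp2 at 0.719. These correlations run over few groups that share the same libraries and are a description.

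The wider pathway was read from a list of 21 other genes, 20 of which passed the filter in Quant-seq, Cyp26c1 being the exception. In DMSO 2 were called higher and 0 lower at 8 h (3.5% and 2.93% of all genes tested), 6 and 3 at day 1 (16% and 13.4%), 4 and 1 at day 2 (16.2% and 10.1%), 8 and 1 at day 4 (19.9% and 10.5%), and 5 and 2 at day 6 (22.4% and 14.6%). In auxin the counts against 0 h were 2 and 0 at 8 h (3.81% and 3.4%), 5 and 2 at day 1 (14.4% and 11.3%) and 9 and 1 at day 2 (18.2% and 8.33%). At day 4 they were 9 and 0 (22.8% and 11.4%) and at day 6 they were 10 and 0 (23.2% and 13.2%). Several of these counts are near the share of all genes, such as those of DMSO at day 2 and day 6. Among those called at 8 h was Nrip1, a corepressor that binds ligand-bound receptors (2.38 ± 0.20, adjusted p = 3.46e-09). It was also called in auxin at 8 h, at 1.89 ± 0.21 (adjusted p = 3.93e-07). The median log2 fold change of the 20 genes at 8 h in DMSO was 0.06, against 0 over all genes tested.

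Other genes of the list make RA from its precursors or store them. Aldh1a1, a retinal dehydrogenase, had 0 reads at 0 h and at day 4 stood at 8.11 and 9.79 CPM in DMSO and at 5.34 and 10.6 CPM in auxin. In auxin it was called at day 2, at 1.62 and 1.79 CPM (adjusted p = 0.0266), against 0.932 and 1.03 CPM in DMSO, which was not called. Aldh1a2, the retinal dehydrogenase that makes most RA in the early embryo, had 2 reads at 0 h and at day 4 had 24 reads in DMSO and 12 in auxin, where it was called (adjusted p = 0.022). In auxin it was called from day 1 on, at 2.33 and 3.86 CPM at day 1 (adjusted p = 0.027) and 4.18 and 4.87 CPM at day 2 (adjusted p = 0.00625). The DMSO libraries stood at 0.551 and 1.09 CPM and at 0 and 1.40 CPM at these times, uncalled against 0 h. The differences of Aldh1a2 between auxin and DMSO were not called (adjusted p = 0.252 at day 1 and 0.0541 at day 2), nor was that of Aldh1a1 at day 2 (adjusted p = 0.72). Aldh1a2 passed the filter on low counts only through DMSO at day 4, the group where it is highest, and Aldh1a1 only through the day 4 and day 6 groups. Their calls in those groups, which are among the counts given for the list, are no support for a difference or for its time. Rdh10, which oxidizes retinol to retinal, was called higher in both arms at day 4, by 1.28 ± 0.46 in DMSO (adjusted p = 0.0201) and 2.13 ± 0.42 in auxin (adjusted p = 0.000127). It was called again at day 6, by 3.18 ± 0.43 in DMSO (adjusted p = 5.23e-07) and 3.63 ± 0.38 in auxin (adjusted p = 5.70e-09). Lrat, which esterifies retinol for storage, had 0 reads at 0 h and at day 1 had 26 reads in DMSO and 11 in auxin. It passed the filter only through DMSO at day 1, so its calls at that time, which are among the counts given for the list, are no support for a difference.

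The third retinal dehydrogenase, Aldh1a3, was the pathway gene called in most contrasts of auxin against DMSO. Auxin against DMSO called 0 of the 20 genes at 8 h and at day 1, and 2 higher with 0 lower at each of day 2 (2.93% and 1.88% of all genes), day 4 (4.66% and 2.59%) and day 6 (4.77% and 5.3%). Aldh1a3 fell in DMSO from 44.4 CPM in both 0 h libraries to 9.33 and 10.4 CPM at day 4 (-2.32 ± 0.26, adjusted p = 2.94e-08), and was at 32.3 and 45.7 CPM with auxin at day 4 (1.80 ± 0.28 against DMSO, adjusted p = 3.28e-05). It was also called higher with auxin at day 2 (1.25 ± 0.21, adjusted p = 0.0002) and day 6 (1.31 ± 0.32, adjusted p = 0.00431). The other genes called were Rxrg at day 2 (20 reads over the auxin libraries against 1 over the DMSO libraries, the former being the group through which alone it passed the filter, so that its call is no support), Rxra at day 4 (1.95 ± 0.32, adjusted p = 6.71e-05) and the retinol carrier Rbp4 at day 6 (2.45 ± 0.57, adjusted p = 0.00324). Without RA, Aldh1a3 was higher in total SLAM-seq reads at 24 h of auxin in DPY30mAID (43.3 to 50.9 CPM against 12.7 to 22.1 CPM, 1.44 ± 0.32, adjusted p = 0.000344) and at 8 h of dTAG-13 in RBBP5FKBP (35.4 to 56.9 CPM against 16.2 to 27.6 CPM, 1.03 ± 0.32, adjusted p = 0.0457). At 24 h in RBBP5FKBP it was at 20.4 to 34.5 CPM (0.28 ± 0.33, adjusted p = 0.654).

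In the absence of RA, the SLAM-seq lines at 0 h held 3 members at well-counted levels, namely Crabp1, Rarg and Rara. The other 6 were at or near 0 in RBBP5FKBP and in DPY30mAID, where Dhrs3 had 2, 10 and 4 reads. In the deeper Kdm5dKO libraries Dhrs3 had 31 and 38 reads, Cyp26a1 23 and 28 and Crabp2 16 and 14. Kdm5dKO against DPY30mAID called 1 of the 6 members tested higher and 1 lower, where 8.31% of the 11011 genes tested were called higher and 9.4% lower, and RBBP5FKBP against DPY30mAID called 0 higher and 1 lower (2.68% and 3.51%). Crabp1 was lowest in Kdm5dKO, at 25.3 and 19.5 CPM against 133, 89.1 and 101 CPM in DPY30mAID (-2.30 ± 0.25, adjusted p = 2.41e-06), and was at 83.1, 56.5 and 59.2 CPM in RBBP5FKBP. The sum of the 10 neural markers was 42.0 to 48.1 CPM in Kdm5dKO, 69.7 to 87.2 CPM in RBBP5FKBP and 105 to 126 CPM in DPY30mAID at 0 h, and its part in the Crabp1 difference was not tested. Rarg was at 143 and 141 CPM in Kdm5dKO (-0.69 ± 0.15, adjusted p = 0.00192) and at 107, 123 and 103 CPM in RBBP5FKBP (-1.01 ± 0.14, adjusted p = 8.14e-05), against 225, 231 and 212 CPM in DPY30mAID. Rara was at 30.3 and 31.1 CPM in Kdm5dKO, 36.5, 18.2 and 17.8 CPM in RBBP5FKBP and 47.9, 46.3 and 40.9 CPM in DPY30mAID, with no call. The Rarg call in RBBP5FKBP was lost without DPY30mAID replicate 2 (-0.98) or RBBP5FKBP replicate 3 (-0.96), and Rara was called lower there without RBBP5FKBP replicate 1 (-1.35, adjusted p = 0.00186).

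Cyp26a1, Rarb and Stra6 were detected in every Kdm5dKO library and rarely in the other lines. Cyp26a1 had 23 and 28 reads at 0 h in Kdm5dKO (3.38 and 3.59 CPM) and 9 to 29 reads in each of its 12 libraries, against 0 reads in all 12 DPY30mAID libraries and 1, 4 and 0 reads at 0 h in RBBP5FKBP. At 0 h this is at least 8.87-fold higher in Kdm5dKO than in DPY30mAID. Cyp26a1 passed the filter on low counts only through the deeper Kdm5dKO group, where it is high, so its call is no support for a difference, and it was lost with a Kdm5dKO library left out (adjusted p 0.101 and 0.112). Rarb had 1 to 10 reads and Stra6 3 to 8 reads in each Kdm5dKO library, and both had 0 in all 24 libraries of the other lines. At these counts neither was tested. Cyp26b1 had 0 to 8 reads per Kdm5dKO library, and Dhrs3 22 to 43 reads (3.27 to 7.25 CPM) against 2 to 11 reads (0.807 to 5.46 CPM) per DPY30mAID library.

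The line cannot be told apart from the sequencing here. Reads covered 18.4 to 19.0 T positions each in DPY30mAID and 18.0 to 19.0 in RBBP5FKBP, but 11.2 to 11.3 in Kdm5dKO, which had more reads as well. In the shallower lines low genes came in clumps, such as 7, 0 and 0 reads of Cyp26b1 at 24 h in DPY30mAID, of which 6 carried T>C, and 6, 0 and 1 reads at 0 h in RBBP5FKBP, of which 6 did. The retinoid X receptor gene Rxrg, like Cyp26a1, passed the filter only through Kdm5dKO, and its call there is no support either. At 0 h it had 0 reads in DPY30mAID SLAM-seq and 1.28 and 2.35 CPM in Kdm5dKO. In the Quant-seq libraries of DPY30mAID cells at 0 h it had 7 reads (0.786 and 2.24 CPM). Cyp26a1 had 0 reads in those Quant-seq libraries too, Rarb 1 and Stra6 2, where reads covered 11.2 to 11.9 T positions. Crabp1 was at 76.6 and 81.8 CPM there, above the 19.5 to 25.3 CPM of Kdm5dKO. The Quant-seq values of all these genes come from another protocol, and the part of the sequencing in the differences between lines was not tested. Of the other pathway genes, Dhrs4 was called higher in Kdm5dKO (1.38 ± 0.43, adjusted p = 0.0228) and Fabp5 lower (-1.10 ± 0.19, adjusted p = 0.000287). Of the 18 tested, 2 were called in each direction, Rxrg among those higher, where 8.31% of all genes were called higher and 9.4% lower.

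**Figure D4:**
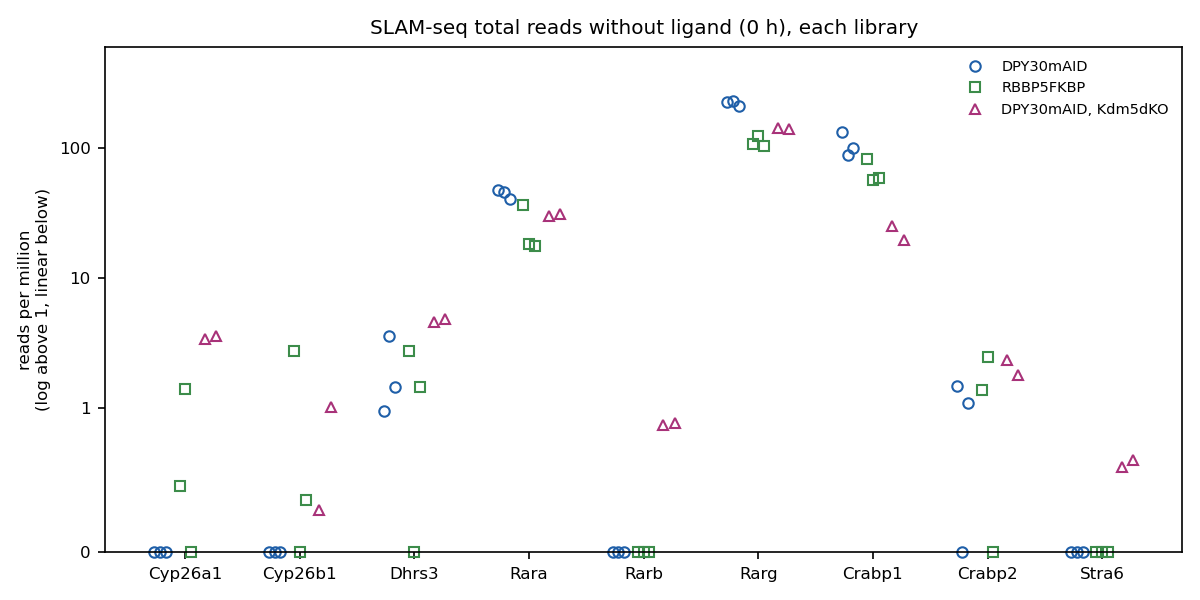
CPM of total SLAM-seq reads (log axis above 1, linear below) of the 9 members at 0 h, with each point a library of DPY30mAID (circles), RBBP5FKBP (squares) or DPY30mAID Kdm5dKO (triangles). Crabp1 is lowest in Kdm5dKO (19.5 and 25.3 CPM), where Cyp26a1, Rarb and Stra6 are above 0 in both libraries.

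The next comparison asked what loss of the subunit did with RA absent. At 24 h, 1 of 3 tested members was called in DPY30mAID (6.16% of 9848 genes higher and 7.05% lower), 1 of 3 in RBBP5FKBP (1.65% and 1.83% of 9676 genes) and 0 of 6 in Kdm5dKO by edgeR, by DESeq2 and at an unadjusted p under 0.05 with the same fold change (0.878% and 0.579% of 11394 genes). The member called lower was Crabp1 in both lines. In DPY30mAID it went from 133, 89.1 and 101 CPM to 42.5, 49.5 and 57.7 CPM (-1.11 ± 0.19, adjusted p = 5.48e-06), and in RBBP5FKBP from 83.1, 56.5 and 59.2 CPM to 45.6, 23.8 and 28.9 CPM (-1.04 ± 0.26, adjusted p = 0.014). The neural marker sum went from 105 to 126 CPM to 53.8 to 70.2 CPM in DPY30mAID. In RBBP5FKBP it went from 69.7 to 87.2 CPM to 84.8 to 123 CPM. The primitive endoderm sum fell in DPY30mAID from 115 to 169 CPM to 71.8 to 82.7 CPM. In RBBP5FKBP it fell from 188 to 220 CPM to 150 to 167 CPM. The trophectoderm and simple epithelium sum also fell below every 0 h library in both lines. The pluripotency and mesoderm sums did so in DPY30mAID and overlapped in RBBP5FKBP. The part of these lists in the Crabp1 change was not tested. The Crabp1 call in DPY30mAID was lost without 0 h replicate 1 (-0.93) or 24 h replicate 1 (-0.99). The call in RBBP5FKBP was lost without 0 h replicate 1, 24 h replicate 2 or 24 h replicate 3 (adjusted p 0.0639 to 0.0867). In Kdm5dKO Crabp1 went from 25.3 and 19.5 CPM to 18.1 and 16.5 CPM (-0.42 ± 0.19, adjusted p = 0.183). The difference between this change and that in DPY30mAID did not pass the test (0.67 ± 0.36, adjusted p = 0.304).

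Rarg moved in opposite directions in the 2 degron lines. At 24 h it was at 133, 134 and 114 CPM in DPY30mAID, below all 0 h libraries (-0.82 ± 0.13, adjusted p = 1.31e-06), and at 191, 189 and 158 CPM in RBBP5FKBP, above all 0 h libraries (0.66 ± 0.16, adjusted p = 0.0111). The changes differed by 1.47 ± 0.19 (adjusted p = 1.87e-06), a contrast added after these values were seen. The order of the lines was reversed between 0 h and 24 h, and the 0 h levels themselves differed. Rara did not pass the test in total reads at 24 h in any line, with differences of -0.35 ± 0.23 in DPY30mAID, 0.28 ± 0.33 in RBBP5FKBP and 0.17 ± 0.12 in Kdm5dKO (adjusted p 0.253, 0.65 and 0.417).

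**Figure D5:**
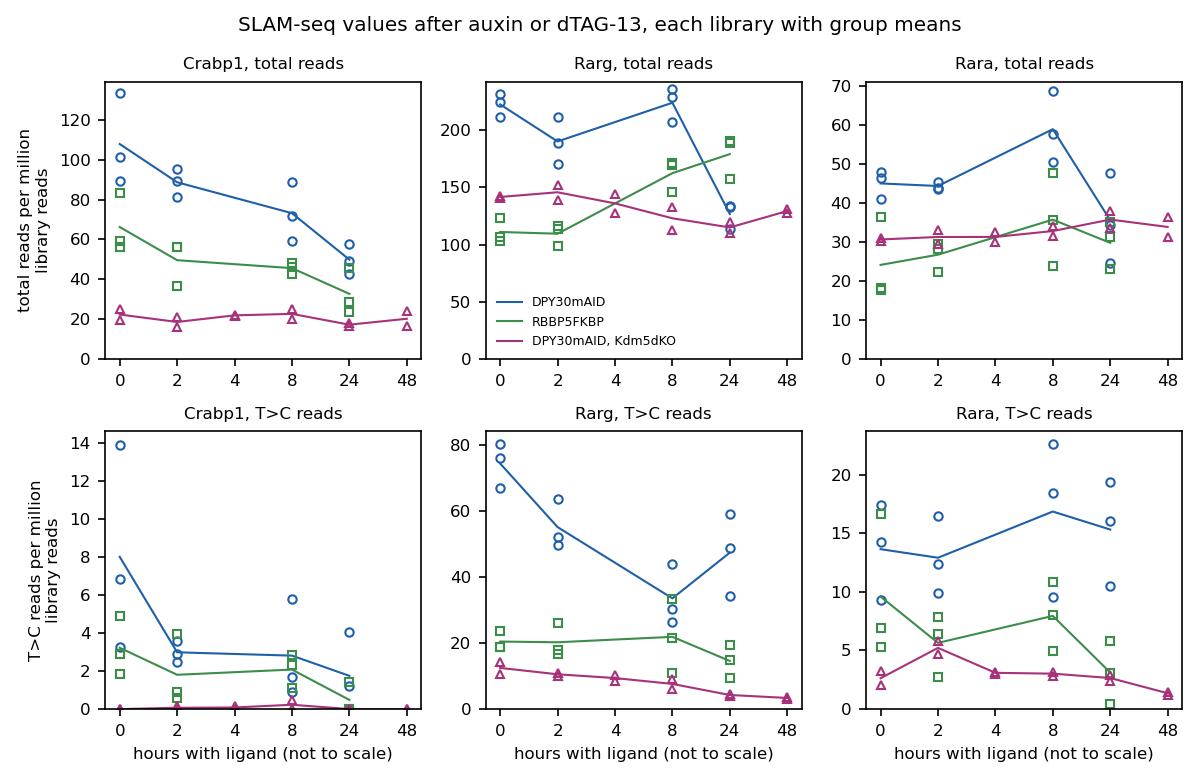
Total reads (top) and T>C reads (bottom), both scaled as CPM to total library reads, of Crabp1, Rarg and Rara against hours with ligand (spacing not to scale), with each point a library and lines through group means. The Rarg lines of total reads cross before 24 h, falling in DPY30mAID to 114 to 134 CPM and rising in RBBP5FKBP to 158 to 191 CPM, while the mean of its T>C reads in DPY30mAID is lowest at 8 h.

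In new RNA, counted as T>C reads scaled to total reads, Rarg was the member called lower in DPY30mAID at 8 h, from 156, 188 and 222 T>C reads at 0 h to 103, 63 and 58 (-1.25 ± 0.32, adjusted p = 0.00597), where 0.158% of the 6317 genes tested were called higher and 14.6% lower. The 3 libraries at 8 h held 305907, 202940 and 120887 T>C reads in all, with 1.24, 1.16 and 1.06 conversions per T>C read, against 330408 to 444450 reads and 1.24 to 1.25 conversions at 0 h, and the part of this spread in the Rarg value was not tested. Its total reads at 8 h overlapped those at 0 h (-0.10 ± 0.13, adjusted p = 0.678). At 24 h in DPY30mAID edgeR called 0 of 3 members, with 1 (Crabp1) lower at an unadjusted p under 0.05 and the same fold change and 0 by DESeq2, where 0.807% of genes were called higher and 2.69% lower. Crabp1 passed the filter on T>C counts only through 0 h, the group where it was high, so this is no support for a difference. Rarg was at 122, 122 and 85 T>C reads there, fewer per total read than at 0 h in every library (-0.66 ± 0.32, adjusted p = 0.243). In Kdm5dKO, Rarg T>C reads fell from 73 and 111 at 0 h to 31 and 27 at 24 h (-1.60 ± 0.28, adjusted p = 2.56e-06), where 0.117% of 5965 genes were called higher and 27.1% lower, and to 21 and 24 at 48 h (-1.98 ± 0.29, adjusted p = 9.62e-09, 0.117% and 64.5%). Rara was called lower at 48 h as well, with 8 and 10 T>C reads against 14 and 25 (-1.06 ± 0.46, adjusted p = 0.0357). The Rara call was lost with DESeq2 and without 0 h replicate 2 or either 48 h library (edgeR adjusted p 0.059 to 0.326). The median log2 fold change of all genes was -0.72 at 8 h in DPY30mAID and -1.29 at 48 h in Kdm5dKO. With library factors taken from the T>C reads, the Rarg value was -0.48 (adjusted p = 0.246) in DPY30mAID at 8 h. In Kdm5dKO it was -0.81 (adjusted p = 0.0388) at 24 h and -0.67 (adjusted p = 0.127) at 48 h, where Rara turned to 0.24 (adjusted p = 0.839). In RBBP5FKBP, Rarg T>C reads at 8 h were 58, 39 and 23 against 41, 54 and 65 at 0 h (0.05 ± 0.39, adjusted p = 0.962). At 24 h edgeR called 0 of 2 members there, with 1 (Rara) lower at an unadjusted p under 0.05 and the same fold change and 0 by DESeq2 (0.189% and 22.8% of 4761 genes). Rara had 7, 1 and 12 T>C reads against 36, 15 and 19 at 0 h (-1.63 ± 0.68, adjusted p = 0.0657), overlapping in T>C reads per total read, where the median of all genes was -0.91. With library factors from the T>C reads the Rara value was -0.72. It was called lower without 0 h replicate 2 or 24 h replicate 3 (adjusted p = 0.0441 and 0.0264).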

How the data were processed

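Quant-seq and SLAM-seq libraries of mouse embryonic stem cell lines were analysed from the tables the authors deposited, 1 per library, which hold read counts per 3′ UTR interval (46420 intervals, GENCODE vM14, mm10) with T>C counts beside them. Per the file headers the counts came from SlamDunk 0.3.4; the submitters' processing notes also name HISAT2 2.2.1 and featureCounts, and how strand was used is not given in the sources used here. The deposited counts were summed per Ensembl gene, symbols were taken from GENCODE, and the authors' CPM column was not used. Replicates were not pooled by the authors.

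edgeR 4.0.16 in R 4.3.3 was run on the whole table with TMM library sizes, keeping genes that averaged 10 or more reads in any group; the Quant-seq groups entered 1 fit, the 0 h libraries of the 3 lines another, and each line its own. T>C counts were scaled to total reads. SE is the absolute log2 fold change over the square root of F. P-values were adjusted by Benjamini-Hochberg over all genes tested. The scripts were tested on simulated data. Intervals, exact binomial at 95%, and floors of 3 counts over a group cover counting error only, since reads carry no molecular identifiers. Alternatives were DESeq2 1.42.0, RLE factors, no filter, the leading interval, unadjusted p, the replicate number as a block, and each library left out. All 9 members were named, as were up to 4 called pathway genes per direction and the 3 most alike genes per member. Some of these genes are not reported here. Members and gene lists were chosen with earlier results of these data known.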

Additional observations from a re-analysis of the deposited data

Results flagged for a closer look

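The 4 results that follow rest on a test of the difference between effects themselves. The auxin effect on Rarg at day 1 exceeded that at 8 h by 0.96 on the log2 scale (edgeR adjusted p = 0.00395), and at day 2 by 0.74 (adjusted p = 0.0131), both under the limit on fold change used for calls, with auxin below both DMSO libraries at 8 h and above both at day 1 and day 2. At day 4 the arms overlapped and the difference from 8 h, 0.21, did not pass the test (adjusted p = 0.582). The auxin effect on Cyp26b1 at day 4 exceeded that at 8 h by 2.72 (adjusted p = 0.0348). It rests on few reads at 8 h and was no longer called when any 8 h library, auxin day 4 replicate 1 or DMSO day 4 replicate 1 was left out (adjusted p 0.0628 to 0.158). The change of Rarg total reads at 24 h of ligand was higher in RBBP5FKBP than in DPY30mAID by 1.47 (adjusted p = 1.87e-06), and every 24 h library lay below the 0 h libraries in DPY30mAID and above them in RBBP5FKBP. This last contrast was chosen after seeing the data. Alternatives are given for the Cyp26b1 contrast only, so how the Rarg results depend on the processing is not shown.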

How the results depend on the processing

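Over 26 comparisons, 502 of 556 alternative counts of members called stayed within 1.5 times the reported count and 54 moved. Of 1887 alternative member values, 1811 kept their side of the threshold, and among the 1016 that were uncalled 46 had the other sign. A call was lost by 59 and gained by 16, and Rara in T>C reads of Kdm5dKO at 48 h turned to 0.2431 with factors from T>C reads. With those factors 0 members were lower in T>C reads of DPY30mAID at 8 h and of Kdm5dKO at 24 h and 48 h. With DESeq2, 3 members were higher at 8 h in DMSO, 2 at 8 h in auxin, and 1 lower in T>C reads of Kdm5dKO at 48 h. Unadjusted p gave 1 lower in T>C reads at 24 h in DPY30mAID and in RBBP5FKBP. The DPY30mAID call was Crabp1, which passed the filter only through 0 h, where it was high, and is no support for a difference. For auxin against DMSO, unadjusted p gave 1 lower at 8 h, fits of 2 groups gave 1 lower at day 1 and 0 higher and 1 lower at day 6, and no filter gave 1 lower at day 1, 0 higher at day 4 and 1 higher at day 6. No filter also gave 1 lower in T>C reads of Kdm5dKO at 48 h.

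Leaving out 1 library gave 3 to 4 members higher at 8 h in DMSO and 2 to 3 in auxin, and 1 to 2 lower in auxin at day 2 and at day 6. For auxin against DMSO it gave 0 to 1 higher and 0 to 1 lower at day 1, 0 to 1 higher at day 2, 0 to 1 higher and 0 to 1 lower at day 4, and 1 to 2 lower at day 6. The difference of the auxin effect between day 4 and 8 h had 0 to 1 higher. At 0 h it gave 0 to 2 lower in RBBP5FKBP and 0 to 1 higher in Kdm5dKO, at 24 h of ligand 0 to 1 lower in DPY30mAID and in RBBP5FKBP, and in T>C reads 1 to 2 lower in Kdm5dKO at 48 h and 0 to 1 lower in RBBP5FKBP at 24 h.

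Replicate numbers did not pair the libraries: deviations of same-numbered libraries correlated at -0.189 to 0.282 over 45 pairs of Quant-seq groups, -0.0356 to 0.0477 in DPY30mAID, -0.173 to 0.134 in RBBP5FKBP, -0.0984 to 0.338 in Kdm5dKO and -0.00541 to 0.123 between lines at 0 h. With the replicate block, 0 members were higher in Kdm5dKO at 0 h (Cyp26a1, adjusted p = 0.0841), and Cyp26b1 at day 6 was 0.91 and uncalled. Genes of few reads at 0 h, namely Cyp26b1, Rarb and Stra6, limit what the 8 h contrasts can show at this depth. Where a group was left with 1 library, that library was assumed to vary like the others.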
